A study of Mus musculus with 10 samples.

Results

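The genes described here carry the KEGG term for aminoacyl-tRNA biosynthesis in the deposited annotation. They were taken if their symbol does not start with mt- and their mean over 10 liver libraries was at least 0.5 FPKM (fragment counts scaled to transcript length and library size). Of 44 genes with the term, 42 met the rule, out of 12731 genes tested in all. They are 19 cytosolic synthetases, 2 genes that supply both compartments (Gars and Kars), 15 mitochondrial synthetases and 6 enzymes that modify an amino acid already on its tRNA, so that the last 6 are not synthetases themselves.

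RNA came from the livers of 5 NIKhKO and 5 NIKflox mice. Every mouse had received the Lieber-DeCarli liquid diet with 5% ethanol over 4 weeks, so the ethanol diet is common to both genotypes and no comparison with another diet was made. NIK is the NF-kB inducing kinase, encoded by Map3k14, and the study's title is about its hepatic form. What hKO stands for is not written out in the labels, and neither the promoter behind the deletion nor sex or age was stated. The labels number the mice 1 to 5 in each genotype and say nothing of litters, so the p-values cover the spread between these samples alone.

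Aminoacyl-tRNA synthetases use ATP to join each amino acid to its own tRNA, which is the step that fixes the meaning of the genetic code. Cells keep one set for translation in the cytosol and a second, also encoded in the nucleus, for the few proteins translated inside mitochondria. In liver the cytosolic set serves the large output of plasma proteins. When amino acids run short, uncharged tRNA activates the kinase GCN2, and the transcription factor ATF4 then raises many cytosolic synthetase genes, which places them among the targets of the integrated stress response.

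Total estimated counts ran from 53225028 to 64321202 in the NIKhKO libraries and from 47161869 to 65052525 in the NIKflox libraries. Map3k14 averaged 0.383 ± 0.0372 FPKM in NIKhKO and 0.606 ± 0.168 FPKM in NIKflox livers (SD, n = 5 each), with a log2 fold change of −0.59 and an adjusted p of 0.33 in edgeR. Summed hepatocyte markers (6 genes) were 43437.6 to 50276.2 FPKM in NIKhKO and 38619.8 to 53579.1 FPKM in NIKflox, so the tissue label was met in all 10 libraries. Heart muscle markers (7 genes) summed to 0.115 to 0.209 FPKM in NIKhKO livers. They reached 6.89 and 30.7 FPKM in NIKflox 2 and 4, against at most 0.183 FPKM in the other NIKflox libraries. Pancreas acinar markers stayed at or below 0.539 FPKM, with Cpa1, Cpb1, Prss2 and Cel listed at 0 in every library. Adipose markers (5 genes) summed to 634.5 to 1562.0 FPKM in NIKhKO and 422.2 to 644.8 FPKM in NIKflox. Only 1 of these 5 genes reached a mean of 0.5 FPKM. It averaged 847.6 FPKM, so the adipose sum is in effect that 1 gene and not a reading of the list as a whole. The list was Adipoq, Plin1, Lep, Retn and Car3. Cholangiocyte markers (5 genes) summed to 15.8 to 26.9 FPKM in NIKhKO and 26.1 to 46.2 FPKM in NIKflox. All 4 that were tested had a negative log2 fold change, and 2 had an unadjusted p below 0.05 in edgeR. FPKM ranges were separate and lower in NIKhKO for 2 of the 4, against 1.59% of all tested genes. B and plasma cell markers (6 genes) summed to 4.64 to 12.1 FPKM in NIKhKO and 3.32 to 7.17 FPKM in NIKflox, and all 4 that were tested had a positive log2 fold change with an unadjusted p below 0.05 in edgeR. Stellate cell markers (5 genes, all with a negative log2 fold change) summed to 49.1 to 62.2 FPKM in NIKhKO and 48.4 to 84.8 FPKM in NIKflox. The part of these markers in the results was not tested.

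Cytosolic synthetases were the more abundant set. Their means over the 10 libraries ran from 1.46 FPKM for Tarsl2, a second threonyl-tRNA synthetase gene, to 19.0 FPKM for Aars, which charges alanine, with a median of 6.14 FPKM. Mitochondrial synthetases ran from 0.687 FPKM for Wars2, the mitochondrial tryptophan enzyme, to 6.10 FPKM for Iars2, the mitochondrial isoleucine enzyme, with a median of 3.27 FPKM. Kars (lysine) and Gars (glycine), which serve both compartments, stood at 13.4 and 13.1 FPKM. Among the modifying enzymes Gatc was highest at 10.5 FPKM and Pstk lowest at 0.920 FPKM. FPKM is meant to be per transcript length. The deposited counts follow FPKM times a fixed length per gene whose source was not stated. A comparison of levels between genes therefore rests on the lengths used.

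**Figure D1:**
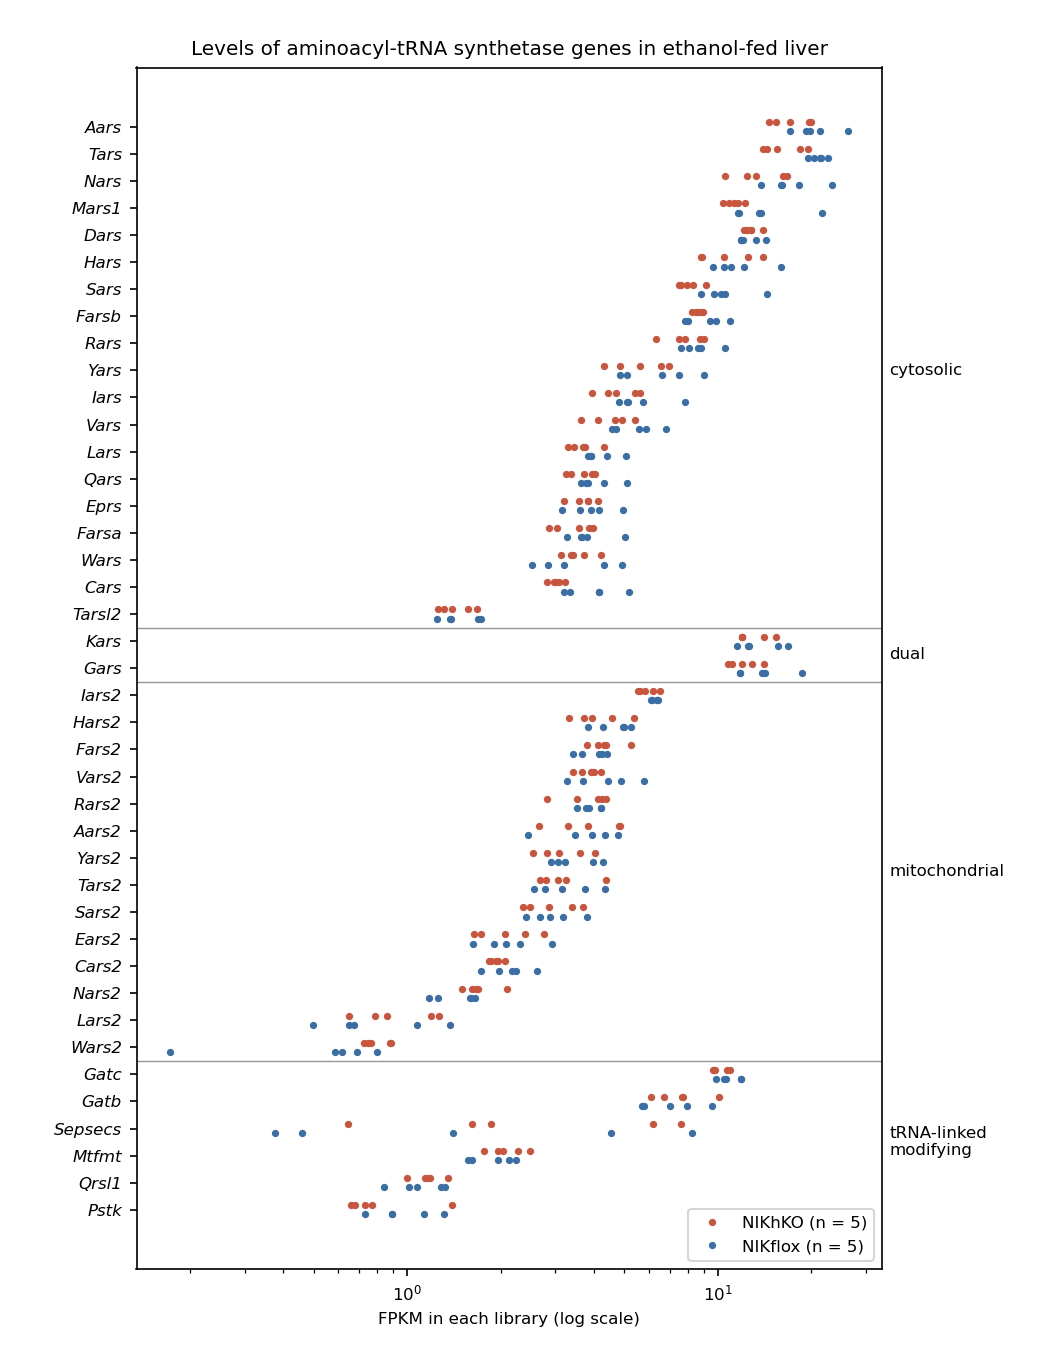
FPKM of the members in each library on a log scale, NIKhKO (red, n = 5) above NIKflox (blue, n = 5), grouped by class and ordered by mean level. Aars, at 19.0 FPKM on average, is the highest and Wars2, at 0.687 FPKM, the lowest; the points of the genotypes overlap for every gene.

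Wars2 was also the member just inside the limit of 0.5 FPKM. Just outside it lay Pars2, the mitochondrial proline enzyme, at a mean of 0.454 FPKM, and the only other gene left out was Mars2, the mitochondrial methionine enzyme, at 0.310 FPKM. All 42 members had a mean of at least 0.5 FPKM in each genotype, so none entered through 1 genotype alone.

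No member passed the test between the genotypes over all genes. In edgeR's quasi-likelihood test on the estimated counts, 0 of the 42 members passed an adjusted p of 0.05 (Benjamini-Hochberg over 12731 genes), where 0.0236% of all tested genes did (0.0157% higher and 0.00785% lower in NIKhKO). In DESeq2 0 members passed, against 0.990% of all genes higher and 0.636% lower in NIKhKO, and in limma on log2(FPKM + 1) 0 members and 0 genes passed. At an unadjusted p below 0.05 in edgeR, 3 members were lower and 0 higher in NIKhKO livers. Of all tested genes 5.14% were lower and 4.85% higher by that rule, so the members' 3 of 42 is near the background. Separate FPKM ranges were seen for 0 of the 42 members, against 2.20% of all tested genes.

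Below that threshold most cytosolic synthetases had lower, and most mitochondrial ones higher, fitted values in NIKhKO livers. Log2 fold changes here are NIKhKO minus NIKflox, from edgeR. Of the 19 cytosolic synthetases, 16 had a negative log2 fold change, with a median of −0.13 and a range from −0.34 to 0.08. Of all tested genes 51.8% were negative, with a median of −0.01. Gars and Kars stood at −0.14 and −0.02, but at −0.04 and 0.05 without NIKflox 4. Kars lay near 0 (SE 0.11), and its sign turned in 5 of 20 other settings. Of the 15 mitochondrial synthetases, 10 had a positive log2 fold change, with a median of 0.03 in edgeR, but 6 of 15 and a median of −0.02 in limma on the authors' FPKM, where 64.1% of all genes were negative. The cytosolic median minus the mitochondrial one was −0.15 in edgeR, and from −0.20 to −0.12 over 20 other settings. Members are not replicates of a genotype, and these medians are a description with no test.

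**Figure D2:**
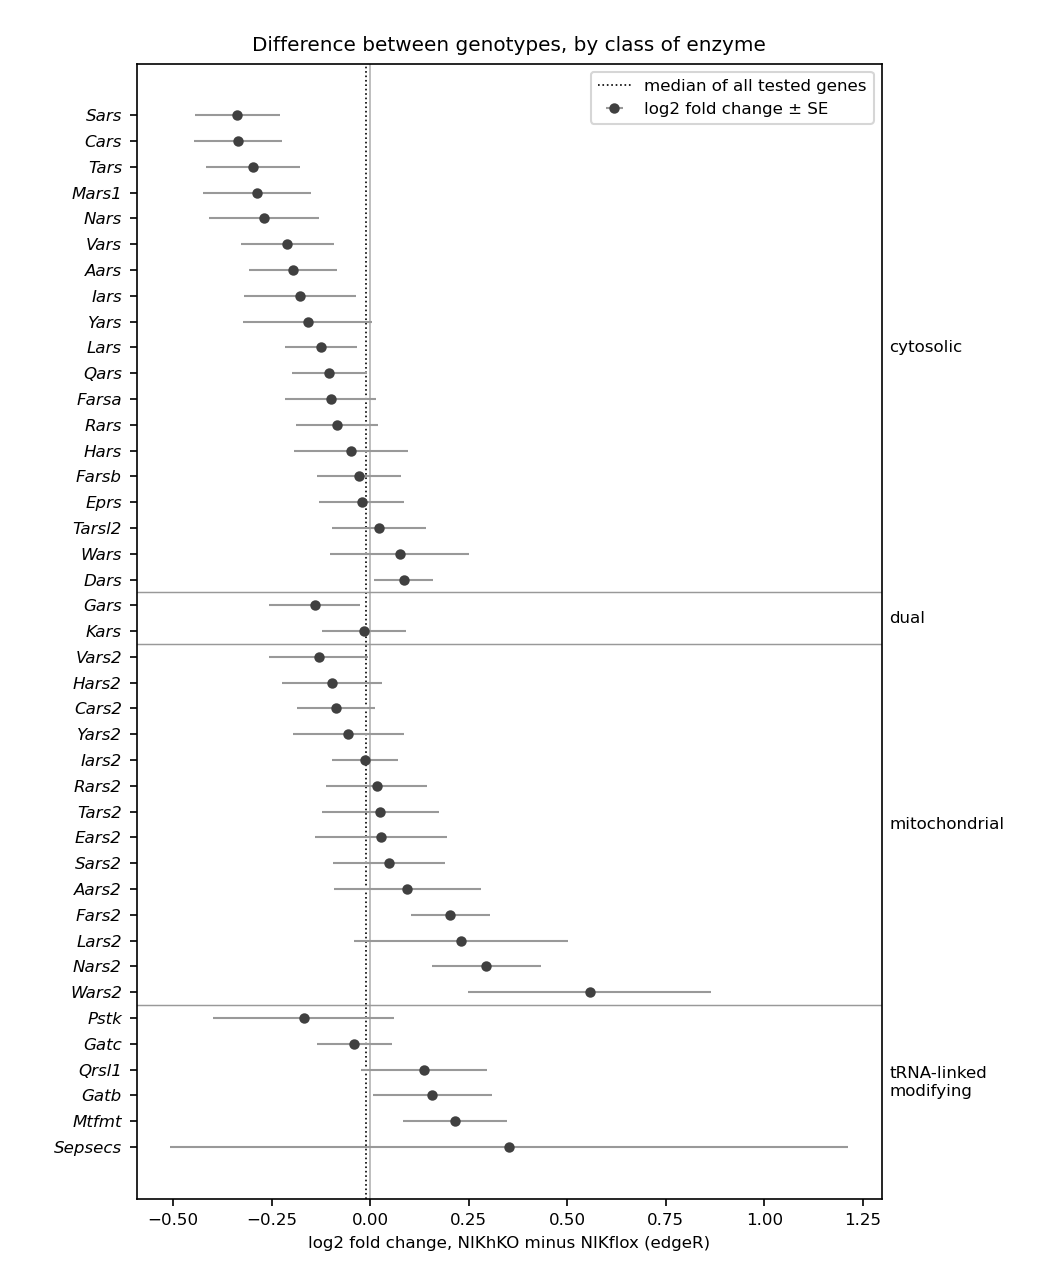
Log2 fold change of the members, NIKhKO minus NIKflox, with standard errors, from edgeR. Cytosolic synthetases lie mostly left of zero (16 of 19). Mitochondrial ones lie mostly right of it (10 of 15 with 1 not drawn, but 6 of 15 in limma on the authors' FPKM). No member passed an adjusted p of 0.05.

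Sars, which charges serine, had the smallest p of the cytosolic enzymes. It read 9.15, 8.32, 7.47, 7.64 and 7.95 FPKM in NIKhKO 1 to 5, and 8.81, 9.75, 10.2, 14.4 and 10.5 FPKM in NIKflox 1 to 5. Apart from NIKhKO 1, which exceeded NIKflox 1, every NIKhKO library lay below every NIKflox library. The means were 8.10 ± 0.669 FPKM in NIKhKO and 10.7 ± 2.15 FPKM in NIKflox (SD, n = 5 each). In edgeR the log2 fold change was −0.34 (SE 0.11, adjusted p = 0.33), and −0.23 without NIKflox 4. The exact two-sided permutation test over all 252 arrangements of the libraries gave p = 0.016, or 0.38 adjusted over all tested genes. Sars (ENSMUSG00000068739) lies on chromosome 3 at 108424865 to 108445209.

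Cars, the cysteine enzyme, was the steadiest of these genes in NIKhKO livers. Its FPKM was 2.97, 3.08, 3.002, 2.83 and 3.21 in NIKhKO 1 to 5, against 3.33, 3.21, 4.14, 5.17 and 4.15 in NIKflox 1 to 5. The ranges met at NIKhKO 5 and NIKflox 2. It averaged 3.02 ± 0.143 FPKM in NIKhKO and 4.00 ± 0.787 FPKM in NIKflox (SD, n = 5 each). Its log2 fold change in edgeR was −0.34 with an SE of 0.11 (adjusted p = 0.35), and −0.24 without NIKflox 4. Cars (ENSMUSG00000010755) lies on chromosome 7 at 143557230 to 143600090.

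Tars, the main cytosolic threonine enzyme, read 15.4, 14.4, 19.5, 18.3 and 13.9 FPKM in NIKhKO 1 to 5, and 21.4, 21.4, 20.4, 22.6 and 19.5 FPKM in NIKflox 1 to 5. Here the NIKflox libraries lay close together, and NIKhKO 3 reached the lowest of them. The log2 fold change was −0.30 (SE 0.12, edgeR adjusted p = 0.44), and −0.28 without NIKflox 4. Cars and Tars each gave an exact permutation p of 0.016 as well (0.38 adjusted over all tested genes). Tars (ENSMUSG00000022241) lies on chromosome 15 at 11382301 to 11399665.

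Mars1, the methionine enzyme that also charges the initiator tRNA, read 11.6, 12.2, 10.4, 11.3 and 10.9 FPKM in NIKhKO 1 to 5, and 11.6, 11.7, 13.8, 21.6 and 13.6 FPKM in NIKflox 1 to 5. NIKflox 4 stood far above the rest, and without it the log2 fold change of −0.29 (SE 0.14, edgeR adjusted p = 0.53) became −0.12. Mars1 shares 68 bases with Ddit3 on the opposite strand, and no source used here says whether counting was stranded, so reads of that stretch cannot be assigned. The same holds for 9 members in all, among them Fars2, Iars2, Yars, Pstk, Cars2 and Lars, and Tarsl2 shares 923 bases with Tm2d3 on its own strand.

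Nars, the asparagine enzyme, and Vars, the valine enzyme, completed the 6 with the smallest p. Nars read 16.3, 16.7, 12.4, 13.3 and 10.5 FPKM in NIKhKO 1 to 5, and 16.1, 15.9, 18.3, 23.2 and 13.8 FPKM in NIKflox 1 to 5. Vars read 4.67, 5.41, 3.63, 4.10 and 4.93 FPKM in NIKhKO 1 to 5, and 4.71, 4.56, 5.59, 6.79 and 5.87 FPKM in NIKflox 1 to 5. The genotypes overlapped widely for both. Their log2 fold changes were −0.27 (edgeR adjusted p = 0.56) and −0.21 (adjusted p = 0.60), and −0.16 and −0.14 without NIKflox 4. Aars, the most abundant member, read 19.6, 20.0, 14.6, 15.4 and 17.1 FPKM in NIKhKO 1 to 5, and 19.9, 17.1, 19.2, 26.3 and 21.4 FPKM in NIKflox 1 to 5. It averaged 17.3 ± 2.40 FPKM in NIKhKO and 20.8 ± 3.44 FPKM in NIKflox (SD, n = 5 each; edgeR adjusted p = 0.62). Dars, the aspartate enzyme, had the highest log2 fold change of the cytosolic set, 0.08, and read 12.8 ± 0.683 FPKM in NIKhKO and 12.7 ± 1.09 FPKM in NIKflox (SD, n = 5 each).

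NIKflox 4 was the highest of the 10 libraries for 17 of the 19 cytosolic synthetases (89.5%), the exceptions being Farsb, highest in NIKflox 2, and Tarsl2, highest in NIKflox 5. NIKflox 4 was also highest for Gars and Kars, for 6 of 15 mitochondrial synthetases and for 0 of the 6 modifying enzymes. It was the highest library for 24.1% of all tested genes. The lowest library was a NIKhKO one for 14 of 19 cytosolic and 5 of 15 mitochondrial synthetases, against 58.4% of all tested genes. Without NIKflox 4 the median log2 fold change of the cytosolic synthetases was −0.04, with 14 of 19 negative, and that of the mitochondrial synthetases 0.13. The cytosolic figure thus shrank from −0.13 to −0.04 when that library was left out, while the difference between the class medians was −0.17 without it. That difference was −0.15 without both NIKflox 2 and 4.

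Several other values set NIKflox 4 apart. Its heart muscle marker sum of 30.7 FPKM was the highest and its hepatocyte marker sum of 38619.8 FPKM the lowest of the 10 libraries. Transcripts of the mitochondrial genome took 7.15% of its counts, against 8.64 to 12.7% in NIKhKO and 8.90 to 11.1% in the other NIKflox libraries. The part of these differences in the synthetase values was not tested. In whole liver, fewer cells of a type and less RNA per cell cannot be told apart.

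**Figure D3:**
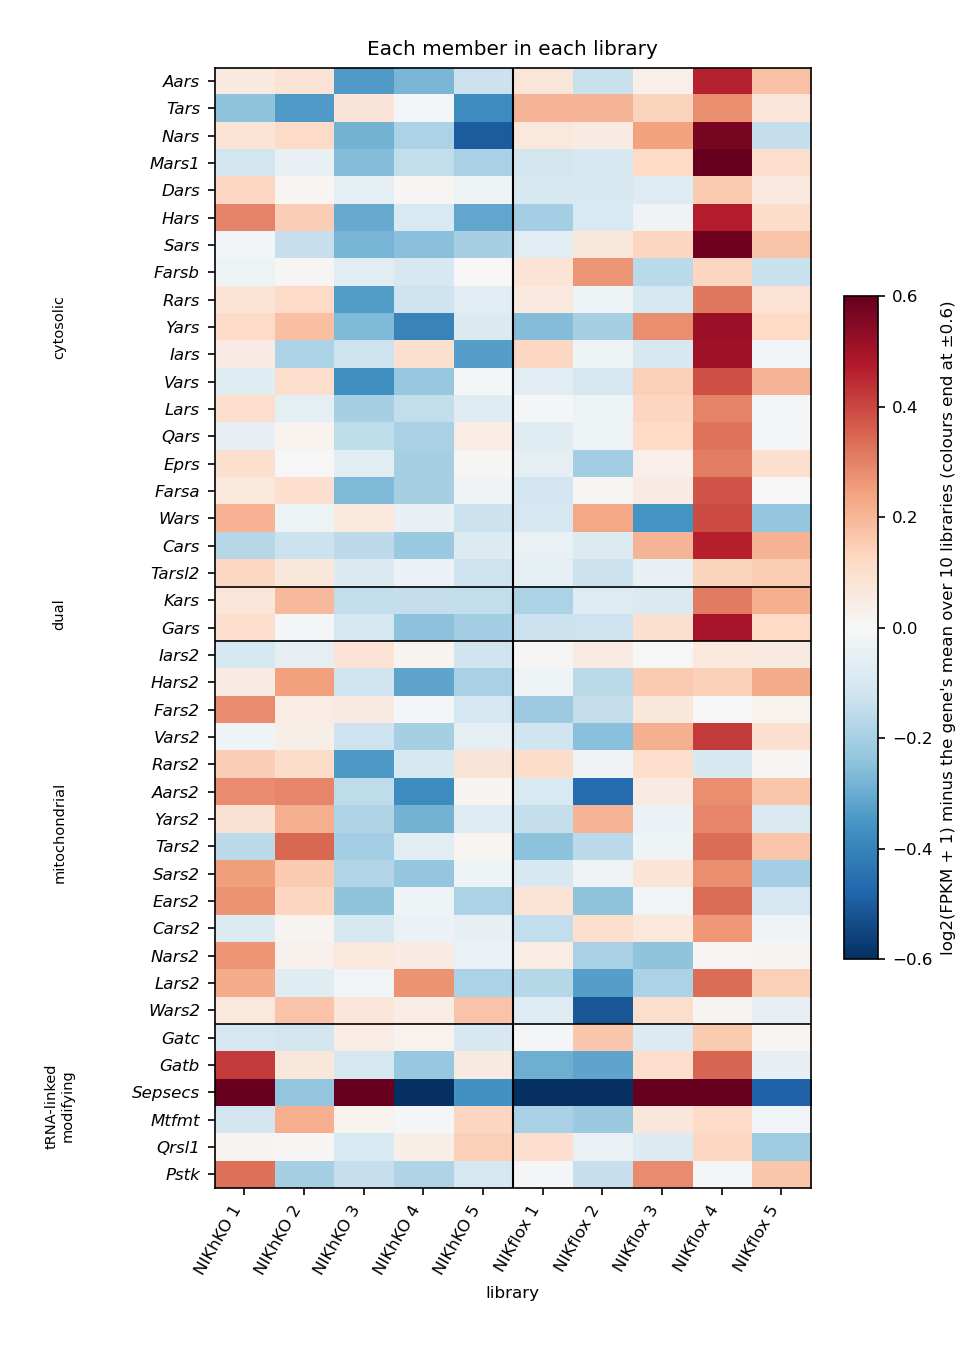
The members (rows, by class) in each library (columns, NIKhKO left of the line and NIKflox right of it), as log2(FPKM + 1) minus the gene's mean over the 10 libraries. NIKflox 4 is the reddest column for 17 of the 19 cytosolic synthetases, and Sepsecs goes from blue to red within both genotypes.

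A ratio within a library does not depend on how libraries are scaled to each other. The summed FPKM of the 19 cytosolic synthetases was 3.15, 3.08, 3.29, 3.42 and 3.16 times that of the 15 mitochondrial ones in NIKhKO 1 to 5. In NIKflox 1 to 5 it was 3.68, 3.86, 3.49, 4.00 and 3.49 times. The highest NIKhKO library was below the lowest NIKflox library. The means were 3.22 ± 0.134 in NIKhKO and 3.71 ± 0.228 in NIKflox (SD, n = 5 each). Aars, Tars and Nars made up 33.9% of the cytosolic sum. A ratio of geometric means, which weights every member alike, was chosen after seeing the data. It was 2.29 to 2.42 in NIKhKO and 2.61 to 3.15 in NIKflox, without overlap. The value of 3.15 was that of NIKflox 2, where Wars2 read 0.173 FPKM. As a ratio of medians they overlapped, at 1.73 to 2.22 in NIKhKO and 1.83 to 2.39 in NIKflox. No p is given for a score over members chosen with results of these data known.

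**Figure D4:**
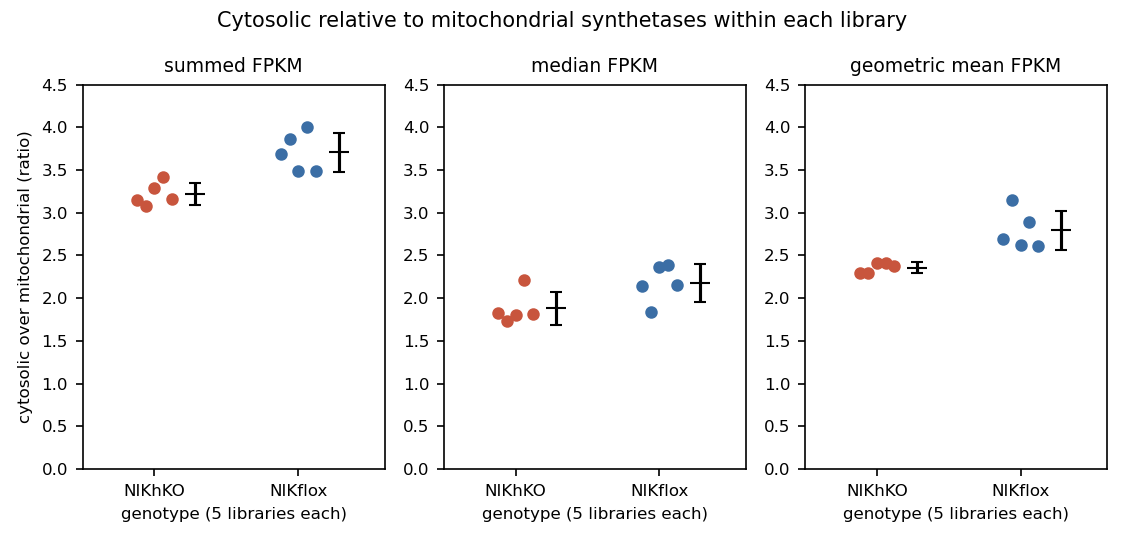
Ratio of cytosolic to mitochondrial synthetases in each library, from summed, median and geometric mean FPKM, with NIKhKO left of NIKflox and the mean ± SD (n = 5) beside the points. The genotypes do not overlap for the sums (at most 3.42 in NIKhKO, at least 3.49 in NIKflox) or the geometric means, and overlap for the medians.

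Enzymes for the same amino acid were compared in 16 pairs over 15 amino acids, since the cytosolic phenylalanine enzyme has subunits from Farsa and Farsb. Threonine was paired through Tars, and Tarsl2 was left out of the pairs. Tarsl2 averaged 1.46 FPKM against 3.27 FPKM for Tars2 and lay below Tars2 in every library. The cytosolic gene was above its mitochondrial partner in every library for 13 pairs. The exceptions were isoleucine and phenylalanine with Farsa, where the cytosolic gene was above in 1 library of 10, and valine, where it was above in 9. Iars stood at 0.814 ± 0.119 times Iars2 in NIKhKO and 0.912 ± 0.183 times in NIKflox (SD, n = 5 each). Farsa stood at 0.798 ± 0.126 times Fars2 in NIKhKO and 0.979 ± 0.144 times in NIKflox.

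The mean ratio was lower in NIKhKO for 15 of the 16 pairs, histidine being the exception, and the ranges overlapped in all 16. For Tarsl2 and Tars2, outside these 16, the log2 fold changes were 0.02 and 0.03, with almost no gap. The largest gap in log2 fold change was at asparagine, where Nars was 8.09 ± 1.31 times Nars2 in NIKhKO and 12.2 ± 3.01 times in NIKflox. For serine, Sars was 2.79 ± 0.337 times Sars2 in NIKhKO and 3.61 ± 0.478 times in NIKflox. For cysteine, Cars was 1.57 ± 0.0960 times Cars2 in NIKhKO and 1.87 ± 0.257 times in NIKflox. Hars was 2.64 ± 0.434 times Hars2 in NIKhKO and 2.55 ± 0.436 times in NIKflox (SD, n = 5 each). Hars and Hars2 overlap by 198 bases on opposite strands, so reads there cannot be assigned between them. Leaving out NIKflox 4, the ratio was lower in NIKhKO for 14 pairs, and leaving out NIKflox 2 and 4, for 13.

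**Figure D5:**
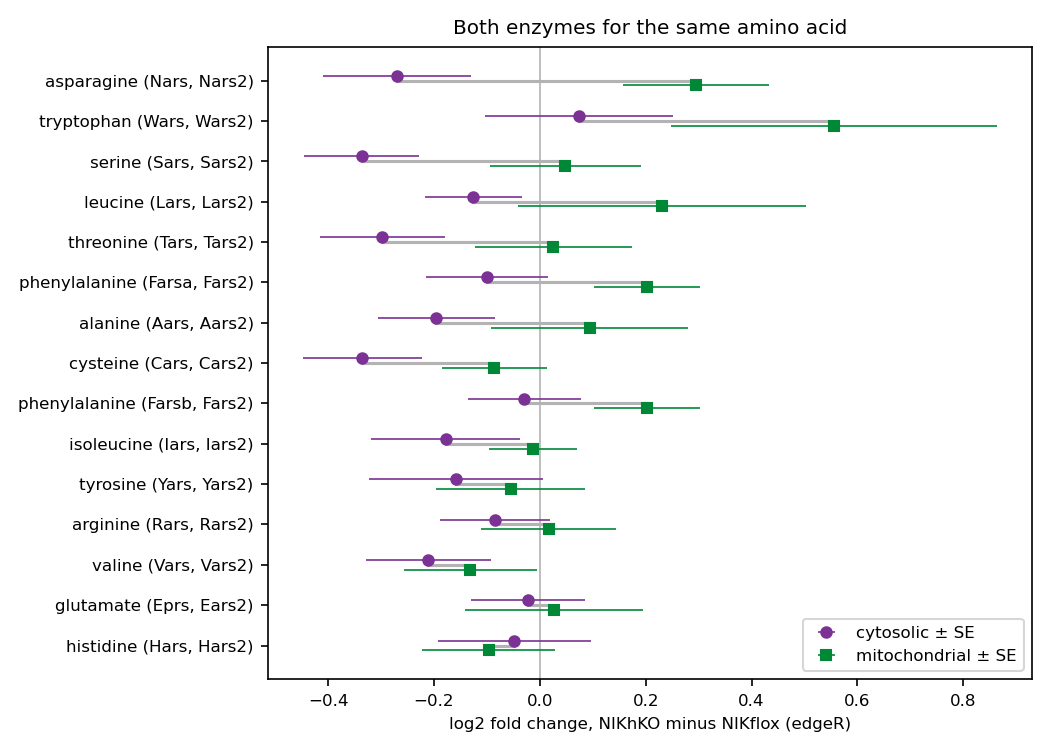
Log2 fold change, NIKhKO minus NIKflox, of the cytosolic (circles) and mitochondrial (squares) enzyme for each amino acid, with standard errors, ordered by the gap between them. The circle lies left of the square in every pair drawn but histidine, with the widest gap at asparagine.

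Among the mitochondrial synthetases the smallest p belonged to Nars2 (asparagine). It read 2.09, 1.62, 1.69, 1.66 and 1.503 FPKM in NIKhKO 1 to 5, and 1.66, 1.25, 1.18, 1.59 and 1.603 FPKM in NIKflox 1 to 5. NIKflox 2 and 3 were low and NIKhKO 1 high, with the others side by side. The log2 fold change was 0.29 (SE 0.14, edgeR adjusted p = 0.51).

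Fars2 (phenylalanine) read 5.26, 4.31, 4.35, 4.12 and 3.79 FPKM in NIKhKO 1 to 5, and 3.42, 3.66, 4.39, 4.13 and 4.23 FPKM in NIKflox 1 to 5. NIKhKO 1 was the highest library and NIKflox 1 the lowest, with the others side by side. The log2 fold change was 0.20 with an SE of 0.10 (edgeR adjusted p = 0.55).

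Wars2 read 0.750, 0.886, 0.762, 0.725 and 0.882 FPKM in NIKhKO 1 to 5, and 0.585, 0.173, 0.802, 0.691 and 0.616 FPKM in NIKflox 1 to 5. NIKflox 2 was the low point, with 69 counts. The log2 fold change was 0.56 (SE 0.31, edgeR adjusted p = 0.60), and 0.33 without NIKflox 2. Iars2 was the most even of the named genes, at 5.93 ± 0.413 FPKM in NIKhKO and 6.27 ± 0.150 FPKM in NIKflox (SD, n = 5 each).

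The modifying enzymes are known for steps that follow charging. Gatb, Gatc and Qrsl1 (the GatA subunit) form the mitochondrial amidotransferase that turns glutamate into glutamine on its tRNA. Mtfmt adds the formyl group to the initiator methionine in mitochondria. Pstk and Sepsecs convert serine on its tRNA into selenocysteine, the amino acid of selenoproteins. Of these 6 genes, 4 had a positive log2 fold change, and the lowest adjusted p was 0.65, for Mtfmt.

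Mtfmt read 1.77, 2.48, 2.04, 1.96 and 2.27 FPKM in NIKhKO 1 to 5, and 1.61, 1.57, 2.13, 2.24 and 1.96 FPKM in NIKflox 1 to 5. Gatb read 10.1, 7.72, 6.72, 6.11 and 7.65 FPKM in NIKhKO 1 to 5, and 5.78, 5.68, 7.94, 9.59 and 7.03 FPKM in NIKflox 1 to 5. Both overlapped between the genotypes. Gatc averaged 10.2 ± 0.596 FPKM in NIKhKO and 10.9 ± 0.884 FPKM in NIKflox (SD, n = 5 each). The edgeR log2 fold change of Gatb was 0.16, and 0.05 without NIKhKO 1. That of Gatc was −0.04, and 0.0024 without NIKhKO 2.

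Sepsecs varied more than any other member, and within both genotypes. It read 7.58, 1.86, 6.17, 0.645 and 1.62 FPKM in NIKhKO 1 to 5, and 0.376, 0.460, 8.28, 4.54 and 1.40 FPKM in NIKflox 1 to 5. The highest library was 11.7 times the lowest in NIKhKO and 22.1 times the lowest in NIKflox. Across all 10 libraries the median member varied 1.74-fold. The within-genotype SD of Sepsecs, 1.12 on the log2(FPKM + 1) scale, exceeded that of 99.2% of the tested genes. Its estimated counts ran from 136 to 3481. The deposited counts follow FPKM times 1 fixed length per gene across libraries, within 1.02-fold for every member. Counts and FPKM are therefore not separate readings of this spread, and its cause was not tested. The log2 fold change was 0.35 with an SE of 0.86. Sepsecs (ENSMUSG00000029173, chromosome 5, 52640087 to 52669708) was singled out after its values were seen. Pstk, which acts just before it, read 1.40 FPKM in NIKhKO 1 and 0.657 to 0.769 FPKM in the other NIKhKO libraries, against 0.733 to 1.32 FPKM in NIKflox.

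Synthetases fall into class I and class II by the fold of the catalytic domain, and Eprs carries one of each. Of 17 class I genes, 12 had a negative log2 fold change (median −0.09). Of 18 class II genes, 10 did (median −0.02). Of the 8 enzymes of the multi-tRNA synthetase complex, 7 were negative (median −0.09), and of the 12 cytosolic synthetases outside it, 10 were (median −0.18). The scaffold proteins of that complex, Aimp1, Aimp2 and Eef1e1, had log2 fold changes of −0.07, −0.20 and −0.26, the last at 1.91 ± 0.102 FPKM in NIKhKO and 2.38 ± 0.523 FPKM in NIKflox (SD, n = 5 each). Of the editing factors, which clear mischarged tRNA, 2 of 4 were negative, and Dtd1 had the smallest p (log2 fold change 0.33, edgeR adjusted p = 0.47). The sensor of uncharged tRNA, Eif2ak4 (GCN2), read 0.984 ± 0.211 FPKM in NIKhKO and 0.928 ± 0.168 FPKM in NIKflox. Its activator Gcn1 read 2.77 ± 0.498 FPKM in NIKhKO and 3.45 ± 0.909 FPKM in NIKflox (SD, n = 5 each). Over all genes 0 of these 10 genes passed in edgeR, and Dtd1 alone had an unadjusted p below 0.05.

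Of 16 tested genes of the ATF4 pathway, 12 had a negative log2 fold change, with a median of −0.18. In edgeR 0 passed over all genes. At an unadjusted p below 0.05, 3 were lower and 2 higher, against 5.14% lower and 4.85% higher of all tested genes. Atf4 itself read 43.8 ± 4.71 FPKM in NIKhKO and 52.9 ± 11.9 FPKM in NIKflox (SD, n = 5 each; edgeR adjusted p = 0.72). Within this list the smallest p belonged to Vldlr, a lipoprotein receptor (log2 fold change 1.12), Ddit3, which encodes CHOP (−0.53), and Atf5 (−0.39). Their edgeR adjusted p ran from 0.26 to 0.27. Fgf21 (−1.63, edgeR adjusted p = 0.29) and Gdf15 (1.24, edgeR adjusted p = 0.36) also had an unadjusted p below 0.05. Fgf21 read 16.4 and 18.1 FPKM in NIKflox 2 and 4, against at most 4.42 FPKM in the other NIKflox libraries. Separate FPKM ranges were seen for 1 of the 16, Atf5, against 2.20% of all tested genes.

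ATF4 acts through the C/EBP-ATF response element, whose core is TGATGNAA. Windows of 300 bases around the start site (250 before, 50 after) were present for 31 of the 42 members in the RefSeq promoter table of build GRCm38.p6. The core was searched on both strands and was found for 5 members, which is 16.1% of the 31. All 5 were cytosolic or dual synthetases (5 of 14), and 0 of 17 mitochondrial or modifying enzymes had it. The core was found for 4.51% of all 27025 gene symbols with a window, and in 3.97% of all 32851 windows. No other motif was searched. A match is shown for each of these genes, because it marks the members with the core, as 30 bases on the strand that reads TGATGNAA, with the core in capitals:
Tars: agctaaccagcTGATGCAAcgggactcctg
Aars: tcagagcgctcTGATGAAAagtgacccgct
Iars: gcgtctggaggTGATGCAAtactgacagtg
Yars: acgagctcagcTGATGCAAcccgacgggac
Gars: cgcccggtgcaTGATGAAAtagcgcagcca

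These stretches lie at chr15:11399655-11399684 (plus strand, Tars), chr8:111033840-111033869 (minus strand, Aars), chr13:49682126-49682155 (minus strand, Iars), chr4:129189895-129189924 (plus strand, Yars) and chr6:55037960-55037989 (minus strand, Gars). The core begins at base 236 of the window in Tars, 260 in Aars, 258 in Iars, 254 in Yars and 221 in Gars, counted along the gene's own direction. The last letters were CAA in Tars, Iars and Yars and AAA in Aars and Gars. The log2 fold changes of the 5 genes were −0.30 for Tars, −0.20 for Aars, −0.18 for Iars, −0.16 for Yars and −0.14 for Gars, none passing the test. Without NIKflox 4 the value was −0.28 for Tars, −0.11 for Aars and −0.04 for Gars. Sars and Mars1, at −0.34 and −0.29, have no match in their windows. A match describes the letters of the window and not binding.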

How the data were processed

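Oligo(dT)-selected liver RNA of 10 mice is held in 1 deposited table. The authors' FPKM values and the deposited estimated counts stand in it side by side, per the file headers. Per the submitters' processing notes, the tools were StringTie 1.3.4d, HISAT2 2.0.4, edgeR and cutadapt 1.9 (roles not stated), and the build is named as the human hg38. The gene identifiers are mouse: all 42 members were found in GENCODE M21 (GRCm38), 33 with the same start and end, so the table's coordinates are read as GRCm38. The deposited counts follow FPKM times a fixed length per gene, and a library holds on average 907 genes with a count of 4 but 330.5 with 3 and 175.8 with 5, for reasons not stated. Counts divided by 4 were therefore an alternative.

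Genes with a mean of at least 0.5 FPKM were tested, plus Map3k14, with edgeR 4.0.16 (R 4.3.3, TMM, quasi-likelihood, two-sided). The SE was derived from the fold change and the F statistic. FPKM was compared by exact permutation over 252 arrangements. DESeq2 1.42.0 and limma 3.58.1 were alternatives. On simulated counts of 12731 genes, edgeR called 20% of the genes set to a 1.5-fold change and 66% of those set to a 2-fold change. It also called 6 genes with no change set. The changed genes were drawn from all tested genes. Named genes were the 6 cytosolic or dual, 4 mitochondrial and 2 modifying genes with the smallest p, the highest and lowest of each class, and the nearest to 0.5 FPKM; Dars and Sepsecs were added after their values were seen. The values of 1 mitochondrial member and 1 promoter match are not reported here, though counts and medians include them. Members and lists were chosen with earlier results of these data known.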

Additional observations from a re-analysis of the deposited data

Results flagged for a closer look

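In 42 groups of 5 values (20 named genes and the ratio of summed FPKM, in each genotype), a sample was marked when its gap to the nearest other exceeded 0.71 of the group's range, which chance gives in about 1 of 20 groups. It marked 2. Mars1, the cytosolic methionine enzyme, stood at 21.6 FPKM in NIKflox 4, against 11.6 to 13.8 FPKM in the other NIKflox libraries. Pstk, the kinase of the selenocysteine route, stood at 1.40 FPKM in NIKhKO 1, against 0.657 to 0.769 FPKM in the other NIKhKO libraries. Pstk overlaps Fgfr2 on the opposite strand by 21628 bases.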

How the results depend on the processing

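In 20 other settings 0 members were called in either direction, with a lowest adjusted p of 0.18 (Sars in DESeq2). The cytosolic median stayed negative, from −0.18 (limma on log2(FPKM + 0.1)) to −0.04 (without NIKflox replicate 4). The mitochondrial median ran from −0.03 (limma on log2(FPKM + 0.1)) to 0.13 (without NIKflox replicate 4). Leaving out single libraries, the difference of the medians ran from −0.20 to −0.12, Tarsl2 from −0.030 to 0.096, Kars from −0.059 to 0.047, Iars2 from −0.068 to 0.019, Gatc from −0.086 to 0.0024 and Sepsecs from −0.10 to 1.20. Genes near 0 changed sign: Tarsl2 to −0.022 and −0.034 in limma with pseudocounts of 1 and 0.1, and, without NIKflox 2 and 4, Tarsl2 to −0.0040, Kars to 0.029 and Gatc to 0.028. The cause was not tested. As a ratio of medians, cytosolic over mitochondrial was 1.88 in NIKhKO and 2.18 in NIKflox. As a ratio of geometric means it was 2.36 and 2.79. The geometric means and the comparison of the pairs, which was not tested, were chosen after seeing the data. Replicate numbers did not pair the samples (correlations from −0.32 to 0.03, none best with its own number). With the replicate block the cytosolic median was −0.13, 0 members were called and 2 genes in all, against 3 without it. Over all genes the 3 calls of edgeR became 207 in DESeq2, 6 with robust dispersion, 0 in limma and 0 to 24 leaving out single libraries. In the simulation 20% of 1.5-fold changes were recovered, and all the members' fold changes but those of Wars2 and Sepsecs with their standard errors lie within it.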
